A study of Rattus norvegicus with 8 samples.

Results

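The complement components examined here were the 8 genes C1qa, C1qb, C1qc, C1r, C1s, C2, C3 and Serping1, taken as every gene spot on the array whose gene name was one of these symbols. They were read by 9 of 30367 probes (18 of 42877 gene spots), because C2 had 2 probes and the C1r probe was printed 10 times. RNA came from adult male Wistar rats, 120 ± 12 days old and castrated, that were either left as controls or given a single subcutaneous dose of testosterone propionate, an androgen ester, at 4 mg/kg in corn oil. Treated and control RNA were hybridised together on 2-colour Agilent arrays, with 4 arrays at 8 h after the dose and 4 arrays at 24 h. At 8 h the treated RNA carried Cy3 on replicates 1 and 2 and Cy5 on replicates 3 and 4, and at 24 h it carried Cy5 on replicates 1 and 2 and Cy3 on replicates 3 and 4. The submitters' name for the castrated rats' RNA, C3d, is a sample name and not the complement fragment of that name. The series title concerns muscle atrophy, the sample labels name no tissue, and skeletal muscle fibre markers were bright in every group (below). The replicates were labelled as biological, without saying whether each was 1 animal or a pool, or whether the controls of both times were the same animals, so the p-values measure the spread between these samples.

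Complement is a cascade of plasma and tissue proteins that tags immune complexes, microbes and dying cells. In the classical pathway, C1q, built from the chains encoded by C1qa, C1qb and C1qc, binds the target and activates the proteases C1r and C1s. C1s then cleaves C4 and C2, whose fragments form an enzyme that splits C3. C1q is made largely by tissue macrophages, whereas C1r, C1s, C3 and the C1 inhibitor Serping1 are also made by fibroblasts and hepatocytes, so in bulk RNA more or fewer cells of a type and more or less RNA per cell cannot be told apart.

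The probes that carry the results below are shown because each value is the signal of a single 60-base stretch of its transcript. They are given 5′ to 3′ as on the array, with no part singled out in capitals, and their positions on rat build rn4 are as printed in the array files. The C1q probes lay on the minus strand of chromosome 5 in the order C1qb, C1qc and C1qa, at chr5:155647530-155647589, chr5:155656638-155656697 and chr5:155662578-155662637. The C1r probe lay at chr4:160728630-160728689 on the plus strand, and the C1s probe next to it at chr4:160736725-160736784 on the minus strand. The C2 probes lay 325 bases apart on the plus strand, probe 1 at chr20:4071504-4071563 and probe 2 at chr20:4071119-4071178. Serping1 was read at chr3:67968812-67968871 on the minus strand, and C3 at positions 64513437 to 64513496 of the unplaced sequence, minus strand. The longest run of bases shared by any pair of the 9 probes, on either strand, was 9 bases. The files do not say which exon or untranslated region a probe covers, and the positions were not set against gene models here.
C1qa: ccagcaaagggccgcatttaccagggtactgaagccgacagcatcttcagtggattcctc
C1qc: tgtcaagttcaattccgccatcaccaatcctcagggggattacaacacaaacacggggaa
C1r: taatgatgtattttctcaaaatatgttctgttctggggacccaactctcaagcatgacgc
C2 probe 1: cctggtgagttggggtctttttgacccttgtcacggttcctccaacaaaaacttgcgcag
C2 probe 2: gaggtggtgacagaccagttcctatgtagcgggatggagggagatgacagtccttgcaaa

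RefSeq promoter sequences, on build GRCr8, were found for 4 of the 8 genes, C1qa, C1qb, C1r and C3. The 250 bases upstream of the start are shown for C1qa and C1qb, neighbouring C1q genes that differed in how evenly their arrays responded. Capitals mark GGAAGT, or ACTTCC on the other strand, the core letters of binding sites for ETS-family factors such as the macrophage regulator PU.1. The C1qa sequence is chr5:154419934-154420183 and the C1qb sequence chr5:154407828-154408077, both on the minus strand.
C1qa: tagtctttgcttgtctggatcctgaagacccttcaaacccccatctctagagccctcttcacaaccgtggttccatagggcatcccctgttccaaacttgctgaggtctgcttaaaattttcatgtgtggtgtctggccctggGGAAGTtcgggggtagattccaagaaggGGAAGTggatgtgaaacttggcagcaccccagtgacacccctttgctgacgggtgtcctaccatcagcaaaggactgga
C1qb: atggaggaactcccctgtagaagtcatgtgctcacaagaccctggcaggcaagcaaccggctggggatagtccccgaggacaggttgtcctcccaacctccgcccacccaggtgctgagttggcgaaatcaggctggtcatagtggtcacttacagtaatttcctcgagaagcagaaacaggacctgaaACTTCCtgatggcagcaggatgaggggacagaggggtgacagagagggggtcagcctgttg

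The ETS core occurred at 107 and 79 bases before the start of C1qa and, on the other strand, at 61 bases before the start of C1qb, and was not found upstream of C1r or C3. It occurred in 19.2% of all 33469 promoters in the same window. The androgen response half-site AGAACA, which reads TGTTCT on the other strand, was present in 17.5% of promoters and in none of the 4 windows. The interferon-type GAS motif TTCNNNGAA, in 7.67% of promoters, occurred once, at 90 bases before the start of C1qa. The C/EBP-type motif TTGCNNAA, which reads TTNNGCAA on the other strand, in 9.22% of promoters, occurred at 83 bases before the start of C1r and 104 bases before that of C3. These matches describe the letters only, and the searched motifs do not overlap in the sequences shown.

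Probes had to be well above background on 3 or more of a group's 4 arrays, in the channel holding that group's RNA, which left 12074 probes and 10900 genes. Of the 8 complement genes 7 were kept, and C3 was not. All values are log2 ratios of treated over control within an array, after background correction and loess normalization, and each estimate comes from 1 limma fit over all 8 arrays with a coefficient for the dye and Benjamini-Hochberg adjustment over all genes. Replicate 1 at 8 h stood apart from the other arrays, with an SD of log2 ratios over genes of 0.444 against 0.18 to 0.201 on the other 8 h arrays. Correlations between arrays over genes ran from -0.125 to 0.374 at 8 h and from 0.229 to 0.706 at 24 h. The 8 h and 24 h arrays lay on different slides, and an effect of the slide cannot be told apart from one of time. The number of arrays limits the precision throughout.

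At 24 h, C1qa and C1qc rose and the 5 other measured complement genes did not pass the test, while at 8 h none of the 7 passed. The 2 of 7 genes higher at 24 h stand beside 4.13% of all genes tested called higher and 2.91% called lower at that time. At 8 h the 0 of 7 in the limma fit stand beside 0.0275% of all genes called in either direction. In that fit 3 of the 7 had an unadjusted p under 0.05 at 8 h, beside 17.1% of all genes tested. The median log2 ratio of the 7 genes was -0.18 at 8 h and 0.23 at 24 h, against -0.012 and 0 for all genes.

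**Figure D1:**
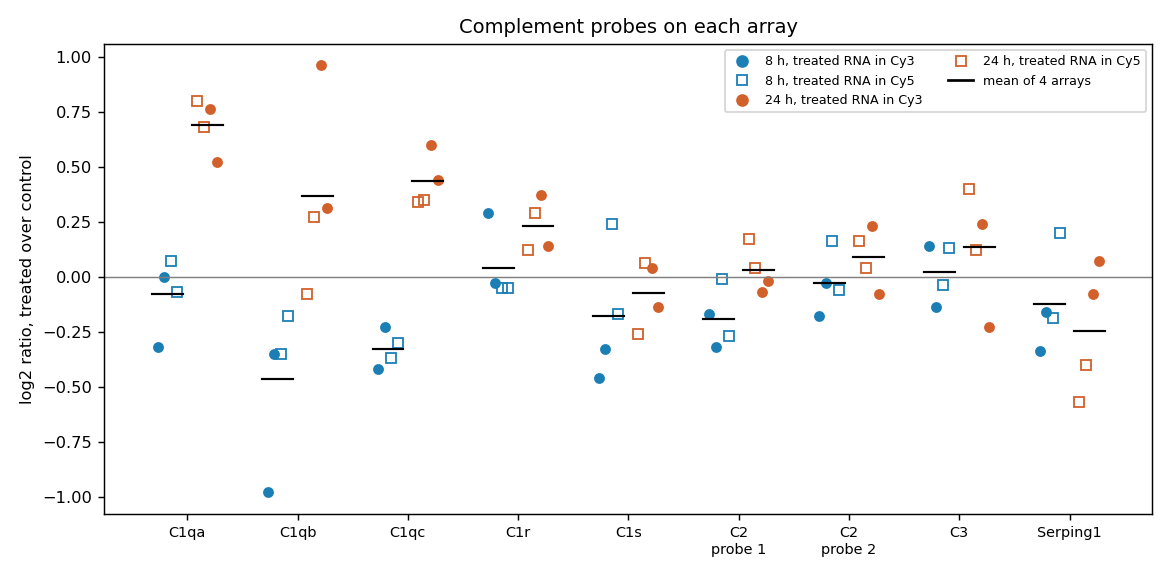
Log2 ratio of treated over control RNA (y axis) for each complement probe (x axis) on the 4 arrays at 8 h and the 4 at 24 h, with filled and open points for treated RNA in Cy3 and Cy5 and a line at the mean of 4 arrays. At 24 h the C1qa points lie between 0.52 and 0.80 and the C1qc points between 0.34 and 0.60, while Serping1 and C1s spread across 0.

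C1qa encodes the A chain of C1q. Its log2 ratios at 8 h were -0.32, 0.00, 0.07 and -0.07 on replicates 1 to 4, so replicate 1 was the low array and the others lay close to 0. At 24 h they were 0.80, 0.68, 0.76 and 0.52, all above every 8 h array. The estimates were -0.08 at 8 h (SD 0.17, n = 4, 95% interval -0.25 to 0.09, limma adjusted p = 0.602) and 0.69 at 24 h (SD 0.13, n = 4, interval 0.52 to 0.87, adjusted p = 0.00104), which is 1.62-fold. The call at 24 h held in each of the 8 fits that left out 1 array and in each of the 12 other alternatives, with estimates from 0.64 to 1.00. These are not separate checks of the effect. Leaving out an 8 h array does not move a 24 h estimate, which stayed at 0.69 there and in several other alternatives. The authors' processed signals and their deposited table, counted separately, hold nearly the same values.

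C1qc encodes the C chain. It was lower in treated RNA on all 4 arrays at 8 h, with log2 ratios of -0.42, -0.23, -0.37 and -0.30, and higher on all 4 at 24 h, with 0.34, 0.35, 0.60 and 0.44. Across all genes, 12% were below 0 on all 4 arrays at 8 h and 15.3% above 0 on all 4 at 24 h. The 8 h estimate of -0.33 (SD 0.08, n = 4, interval -0.48 to -0.18) had an unadjusted p of 0.00069 in limma and an adjusted p of 0.202. Without replicate 2 at 8 h it was -0.35 and passed, with an adjusted p of 0.0253 (0.0253 to 0.746 over the fits that left out 1 array). In that fit 1224 genes passed at 8 h, against 3 with all arrays. At 24 h the estimate was 0.43 (SD 0.12, n = 4, interval 0.28 to 0.59, limma adjusted p = 0.00554), or 1.35-fold, and it too passed in all 8 fits without 1 array and all 12 other alternatives. Here too the estimate stayed the same without an 8 h array and in several of the others. The authors' processed signals gave larger values for C1qc, -0.61 at 8 h and 0.83 at 24 h.

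C1qb encodes the B chain and gave the widest spread of the C1q chains. Its log2 ratios were -0.98, -0.35, -0.35 and -0.18 at 8 h, replicate 1 being far below the others, and -0.08, 0.27, 0.96 and 0.31 at 24 h, replicate 3 being far above. The estimates of -0.47 at 8 h (SD 0.35, n = 4, interval -0.83 to -0.10, limma adjusted p = 0.265) and 0.37 at 24 h (SD 0.43, n = 4, interval 0.00 to 0.73, adjusted p = 0.227) did not pass. Without those arrays the estimates were -0.25 at 8 h and 0.14 at 24 h. On each of the 8 arrays the C1qa ratio exceeded the C1qc ratio, by 0.08 to 0.46.

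C1r and C1s encode the paired proteases of the C1 complex. The C1r ratios were 0.29, -0.03, -0.05 and -0.05 at 8 h, where replicate 1 alone was above 0, and 0.12, 0.29, 0.37 and 0.14 at 24 h, all above 0. The estimates were 0.04 at 8 h (SD 0.17, n = 4, limma adjusted p = 0.802) and 0.23 at 24 h (SD 0.12, n = 4, interval 0.05 to 0.40, adjusted p = 0.115), the latter passing when arrays were weighted by their quality (0.24, adjusted p = 0.0323; range over alternatives 0.0323 to 0.374). Without replicate 1 the 8 h estimate was -0.04. For C1s, the 8 h arrays gave -0.46, -0.33, 0.24 and -0.17, and the 24 h arrays gave -0.26, 0.06, 0.04 and -0.14, on both sides of 0 at each time. Its estimates were -0.18 (SD 0.30, n = 4, interval -0.41 to 0.05, adjusted p = 0.368) and -0.08 (SD 0.15, n = 4, interval -0.30 to 0.15, adjusted p = 0.737).

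**Figure D2:**
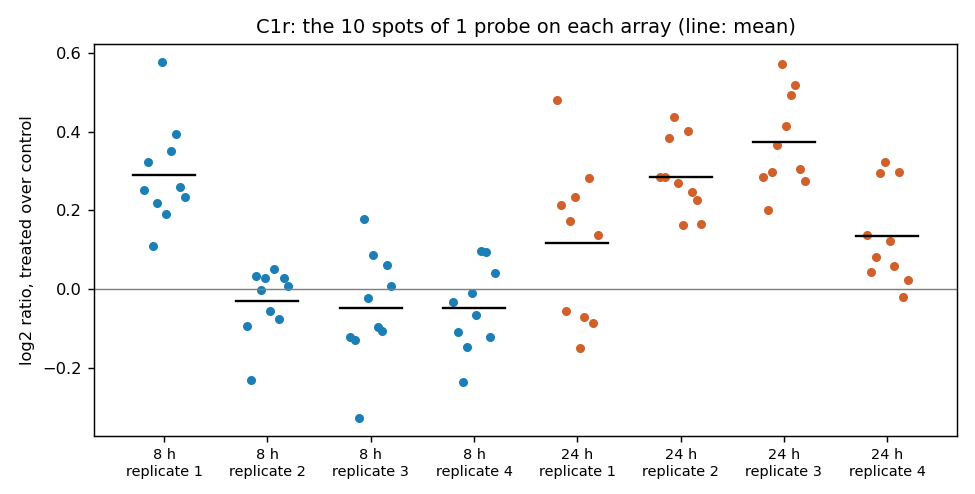
Log2 ratio of treated over control RNA (y axis) at the 10 spots of the C1r probe on each of the 8 arrays (x axis), with a line at the mean of each array. Spots of 1 array spread about as widely as the array means differ, and replicate 1 at 8 h is the 8 h array whose spots all lie above 0.

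The 10 C1r spots show how precisely 1 array reads a probe of this brightness. Their SD within an array was 0.118 at 8 h and 0.141 at 24 h, next to SDs between array means of 0.167 and 0.123. The other complement probes had 1 spot each, so a single array's ratio for them carries spot error of unknown size.

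C2 encodes the serine protease that, once cleaved, forms the C3-splitting enzyme with C4b. Probe 1 gave log2 ratios of -0.17, -0.32, -0.01 and -0.27 at 8 h, all below 0, and 0.17, 0.04, -0.07 and -0.02 at 24 h. Its estimates were -0.19 (SD 0.14, n = 4, interval -0.35 to -0.04, limma adjusted p = 0.265) and 0.03 (SD 0.11, n = 4, interval -0.13 to 0.19, adjusted p = 0.865). Probe 2 gave -0.18, -0.03, 0.16 and -0.06 at 8 h and 0.16, 0.04, 0.23 and -0.08 at 24 h, with estimates of -0.03 (adjusted p = 0.876) and 0.09 (adjusted p = 0.558) when every kept probe was fitted with limma. The probes thus differed at 8 h, where only probe 1 was below 0 on all 4 arrays, and neither passed at any time.

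C3 encodes the central component of the cascade. Its probe was well above background in 1 of 4 control and 2 of 4 treated channels at 8 h, and in 0 of 4 control and 2 of 4 treated channels at 24 h. The measured ratios were 0.14, -0.14, -0.04 and 0.13 at 8 h (mean 0.02, SD 0.14, n = 4) and 0.40, 0.12, 0.24 and -0.23 at 24 h (mean 0.13, SD 0.27, n = 4). No array at either time had both channels well above background, so every C3 ratio involves at least 1 unmeasured level. At 24 h no control channel was well above background. With no filter on dim probes, limma gave adjusted p = 0.954 at 8 h and 0.625 at 24 h.

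Serping1 encodes the C1 inhibitor, which removes C1r and C1s from the complex. The 8 h arrays gave -0.34, -0.16, -0.19 and 0.20, and the 24 h arrays gave -0.57, -0.40, -0.08 and 0.07, with replicate 4 above 0 at both times. Neither estimate passed, at -0.12 (SD 0.23, n = 4, interval -0.38 to 0.13, limma adjusted p = 0.584) and -0.25 (SD 0.29, n = 4, interval -0.50 to 0.01, adjusted p = 0.25). At 24 h the arrays with treated RNA in Cy5 were the lower pair, and at 8 h they were not. The fitted dye coefficient of -0.05 is shared by both times, and the part of the dye at 24 h alone was not tested. Centring each array on its median instead of loess turned both values positive, 0.31 and 0.16. The median over all genes was then 0.122 at 8 h and 0.155 at 24 h, so the 24 h value was level with it. Fitting the 24 h arrays alone brought the loess-normalized 24 h value past the threshold (-0.25, limma adjusted p = 0.0481, range over alternatives 0.0481 to 0.74).

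**Figure D3:**
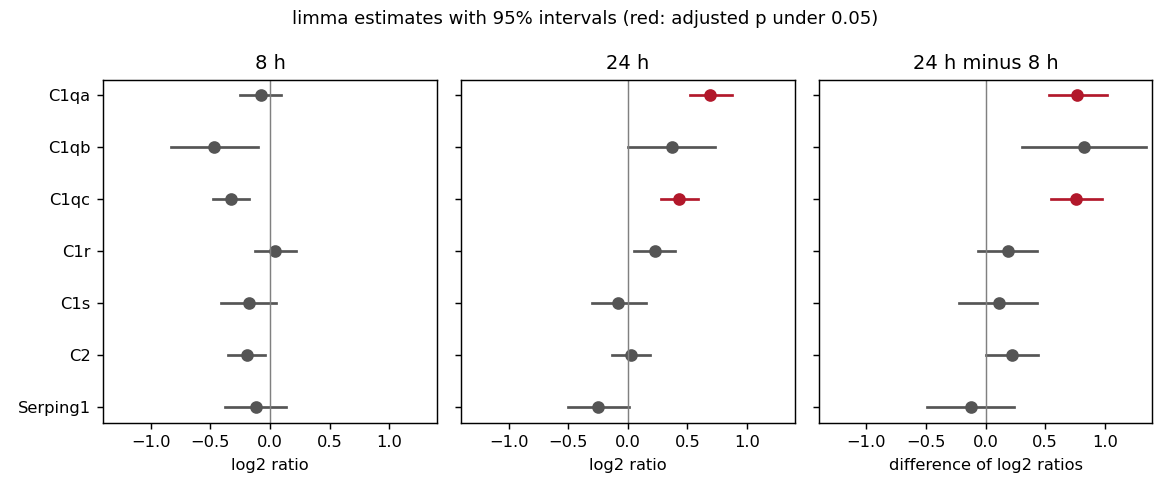
limma estimates (points) with 95% intervals (bars) for the 7 measured complement genes (y axis), as the log2 ratio of treated over control at 8 h and 24 h and the difference between times (x axes). Red marks an adjusted p under 0.05, reached by C1qa and C1qc at 24 h and between times.

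The responses themselves were then compared between times. C1qa and C1qc differed, with 24 h minus 8 h log2 differences of 0.77 (interval 0.53 to 1.02, limma adjusted p = 0.0123, n = 8) and 0.76 (interval 0.55 to 0.98, adjusted p = 0.00835, n = 8), and both were the higher at 24 h. These 2 of 7 stand beside 0.725% of all genes called higher at 24 h than at 8 h. The C1qb difference was as large, 0.83, but less certain (interval 0.31 to 1.35, adjusted p = 0.11). For each C1q chain all 4 ratios at 24 h lay above all 4 at 8 h, which was so for 5.19% of all genes. The differences of C1r (0.19), C1s (0.11), C2 probe 1 (0.22) and Serping1 (-0.12) had adjusted p of 0.307 to 0.757. The C1qa difference missed the threshold with the authors' processed signals (0.87, adjusted p = 0.107), without replicate 4 at 8 h (0.75, adjusted p = 0.0513) and without replicate 1 at 24 h (0.75, adjusted p = 0.0663). With median centring no gene passed between times (C1qa 0.77, adjusted p = 0.339; C1qc 0.81, adjusted p = 0.309). Over all alternatives the adjusted p ranged from 0.0061 to 0.339 for C1qa and from 0.00378 to 0.309 for C1qc.

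In mean channel level, each C1q chain was lower in controls and higher in treated RNA at 24 h than at 8 h, a comparison made across slides. In order of mean log2 level, C1qa was highest in treated RNA at 24 h (8.35, SD 0.24), then in controls at 8 h (8.06, SD 0.43), treated RNA at 8 h (7.98, SD 0.27) and controls at 24 h (7.66, SD 0.17), with n = 4 each. C1qc followed the same order, at 7.17 (SD 0.12), 7.16 (SD 0.17), 6.83 (SD 0.21) and 6.74 (SD 0.07). C1qb had 10.21 (SD 0.42) in treated RNA at 24 h, 10.08 (SD 0.21) in controls at 8 h, 9.85 (SD 0.13) in controls at 24 h and 9.61 (SD 0.29) in treated RNA at 8 h. Most neighbours in these orders differed by less than the larger of their SDs. The exceptions were treated RNA at 8 h above controls at 24 h for C1qa, controls at 8 h above controls at 24 h for C1qb, and controls at 8 h above treated RNA at 8 h for C1qc.

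From 8 h to 24 h the mean control level was lower by 0.40 for C1qa, 0.23 for C1qb and 0.42 for C1qc, and the mean treated level higher by 0.37, 0.60 and 0.35. For C1qa and C1qb these levels overlapped between times in both channels. For C1qc all 4 controls at 24 h were below all 4 at 8 h, as for 4.06% of genes, and all 4 treated samples above, as for 6.78%. At 24 h all 4 treated levels of C1qa and of C1qc lay above all 4 of their control levels, which held for 6.56% of genes. For C2 probe 1 the treated levels at 8 h, 6.48 to 6.66, lay below the control levels, 6.67 to 6.91, as for 3.57% of genes. Levels of the other probes overlapped between treated and control RNA at both times: means ran from 7.02 to 7.25 for C1r, 6.86 to 7.05 for C1s, 6.50 to 6.60 for C2 probe 2 and 10.48 to 10.73 for Serping1. For these probes, C2 probe 1 and C3, no neighbours in the order of group means differed by more than the larger of their SDs.

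**Figure D4:**
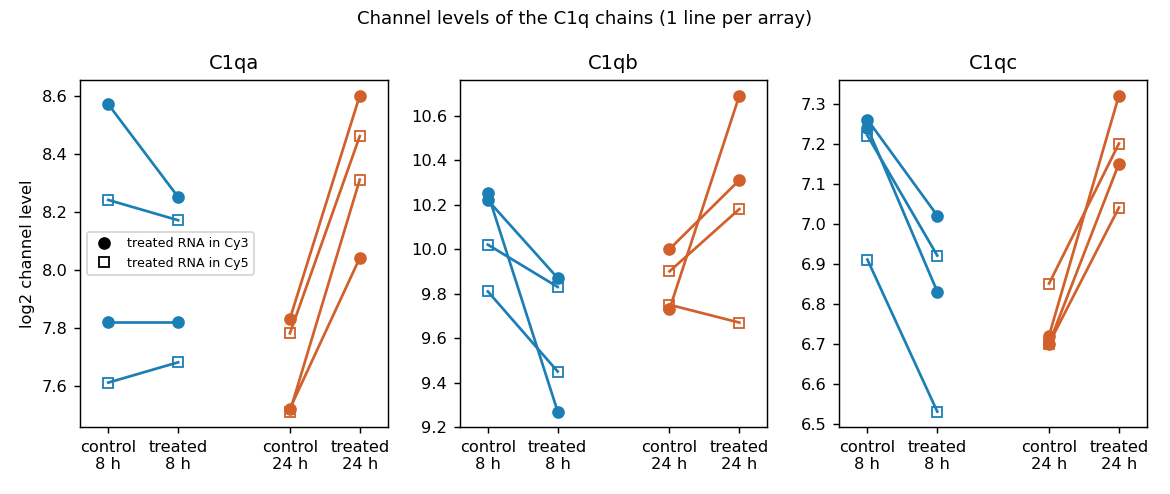
Log2 channel level (y axis) of C1qa, C1qb and C1qc in control and treated RNA at 8 h and 24 h (x axis), with 1 line joining the channels of each array and filled or open points for treated RNA in Cy3 or Cy5. At 24 h every C1qa and C1qc line rises and the treated levels clear the controls, and the 24 h C1qc controls, 6.70 to 6.85, lie below the 8 h controls, 6.91 to 7.26.

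Beyond these components, the rest of the pathway was described from lists of known genes, and none of the 87 measured genes in all the pathway and marker lists passed at 8 h in limma, with 24 at an unadjusted p under 0.05 beside 17.1% of all genes tested. Among 6 measured initiation and activation genes, 1 rose at 24 h, beside 4.13% of all genes tested, with a list median of 0.09. This was Cfb, complement factor B, which supplies the protease of the alternative pathway. The 8 h arrays gave -1.11, -1.09, -0.33 and 0.07, and those of 24 h gave 0.53, 1.58, 1.31 and 0.15, above 0 on all 4 but uneven. The 24 h estimate was 0.89 (SD 0.67, n = 4, limma adjusted p = 0.0315) and the difference between times 1.51 (adjusted p = 0.04). The 24 h call was lost in 3 of the 8 fits without 1 array, namely without replicate 3 at 8 h (0.89, adjusted p = 0.059) and without replicates 2 (0.75, adjusted p = 0.143) and 3 (0.59, adjusted p = 0.121) at 24 h. Its adjusted p ranged from 0.00929 to 0.143 over alternatives, and the difference between times passed in 2 of the 8 fits without 1 array.

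Of the receptors and binding proteins, 7 were measured and 2 rose at 24 h, beside 4.13% of all genes tested, with a list median of 0.09. Calr, calreticulin, a chaperone that also binds C1q, gave 0.58, 0.45, 0.46 and 0.58 at 24 h (estimate 0.52, SD 0.07, n = 4, limma adjusted p = 0.00391) and passed in every alternative. Cd93, a surface protein of endothelial and myeloid cells once described as a C1q receptor, gave 0.37, 0.25, 0.31 and 0.44 (0.34, SD 0.08, n = 4, adjusted p = 0.0136), a call lost without replicate 1 (0.31, adjusted p = 0.105), replicate 2 (0.35, adjusted p = 0.0592) or replicate 4 (0.33, adjusted p = 0.0656) at 24 h. Its adjusted p ranged from 0.00361 to 0.226 over alternatives. C5ar1, the C5a receptor, was at 0.10 and Itgam, a chain of complement receptor 3, at -0.10, neither passing. C3ar1, the C3a receptor, and Itgb2, the partner chain of Itgam, were not well above background on enough arrays.

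Neither the 2 measured terminal pathway genes, C6 and C7, nor the 10 measured regulators included a call at 24 h in limma. In that fit 0 and 1 of them had an unadjusted p under 0.05 at 24 h, beside 22.1% of all genes tested. The regulator medians were -0.06 at 8 h and 0.03 at 24 h. The membrane regulators Cd55 and Cd59 were at 0.02 and 0.13, and Clu, clusterin, at 0.31 (SD 0.42, n = 4, adjusted p = 0.223). The sign of Cd55 turned under other settings. The 12 measured interferon-response genes had 0 calls at 24 h and 2 at an unadjusted p under 0.05, with a median of 0.01. Of 8 measured acute-phase genes 1 rose and 1 fell at 24 h, beside 4.13% and 2.91% of all genes tested. Serpina3n, a secreted protease inhibitor, was at 0.37 (SD 0.13, n = 4, limma adjusted p = 0.0431; 0.00944 to 0.185 over alternatives) and Cebpb, a transcription factor of the acute phase, at -0.62 (SD 0.32, n = 4, adjusted p = 0.0356; 0.00493 to 0.257). The Serpina3n call was lost without replicate 3 or 4 at 8 h or any replicate at 24 h (adjusted p 0.0574 to 0.185), and the Cebpb call without replicate 3 or 4 at 8 h or replicate 1, 2 or 3 at 24 h (0.0549 to 0.166).

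Markers of the cells that could carry complement transcripts were set beside these values. Among 13 measured macrophage and monocyte markers the median log2 ratio was -0.24 at 8 h and 0.21 at 24 h, with estimates above 0 for 1 of them at 8 h and 11 at 24 h. The medians over all genes were -0.012 and 0. At 24 h 3 of the 13 markers rose in limma, beside 4.13% of all genes tested called higher. They were Cd163, the haemoglobin scavenger receptor (0.50, SD 0.09, n = 4, adjusted p = 0.0145), Lyz2, lysozyme (0.65, SD 0.28, n = 4, adjusted p = 0.0359), and Fcer1g, an Fc receptor chain (0.40, SD 0.25, n = 4, adjusted p = 0.0323). The Cd163 call was lost without replicate 1, 3 or 4 at 24 h (adjusted p 0.0719 to 0.103). The Lyz2 call was lost without those or replicate 3 at 8 h (0.0583 to 0.186), and the Fcer1g call without any 24 h replicate or replicate 3 or 4 at 8 h (0.0527 to 0.122). The summed macrophage signal was 5600 to 7940 in controls and 4710 to 7280 in treated RNA at 8 h. At 24 h it was 4830 to 5860 in controls and 5960 to 8030 in treated RNA, so these 24 h ranges were narrowly apart. Such a sum weighs bright markers most, and how often like sums separate was not computed. The muscle fibre sum also separated at 24 h, with treated RNA the lower (below). Mrc1, Cd14, Ms4a7 and Ptprc were not well above background on enough arrays. The median of these markers, like the mean of the C1q chains, was below 0 at 8 h and above 0 at 24 h. Not every marker followed, with Cd74 at 0.23 at 8 h and -0.01 at 24 h and Cd68 at -0.02 at 24 h. The markers' part in the C1q result was not tested.

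Fibroblast markers gave 2 higher and 1 lower of 10 at 24 h, with a median of -0.02. Beside this and the lists that follow, 4.13% of all genes tested were called higher at 24 h and 2.91% lower. The collagen genes Col1a1 (1.54, SD 0.29, n = 4, limma adjusted p = 0.00212) and Col3a1 (1.48, SD 0.40, n = 4, adjusted p = 0.00391) rose, and Gsn, gelsolin, fell by 0.57 (log2, SD 0.30, n = 4, adjusted p = 0.017). Fabp4, a fatty acid binding protein of adipocytes and endothelium, rose as 1 of 3 adipocyte markers (0.43, SD 0.09, n = 4, adjusted p = 0.00389), and Kdr, a receptor for VEGF, as 1 of 4 endothelial markers (0.36, SD 0.12, n = 4, adjusted p = 0.0416). Of 8 muscle fibre markers Acta1, skeletal actin, fell by 0.44 (SD 0.15, n = 4, limma adjusted p = 0.0225). The summed signal of these markers was 118000 to 160000 in controls and 114000 to 161000 in treated RNA at 8 h. At 24 h it was 142000 to 175000 in controls and 112000 to 141000 in treated RNA, so these 24 h ranges did not overlap. On replicates 3 and 4 at 8 h 1 of the 8 markers had no value, so those sums lack it. The 8 h and 24 h sums are therefore not like for like. Leaving out 1 array ended the calls of Gsn (replicate 1 or 2 at 24 h, adjusted p 0.0581 to 0.0725), Acta1 (any 24 h replicate, 0.0688 to 0.106) and Kdr (any 24 h replicate or replicate 3 at 8 h, 0.0727 to 0.17). With the authors' processed signals Cd93, Serpina3n, Cebpb, Lyz2, Fcer1g, Gsn, Kdr and Acta1 did not pass at 24 h. With median centring Acta1 was at -0.03 (adjusted p = 0.925; 0.00283 to 0.925 over alternatives) and Gsn at -0.16 (adjusted p = 0.648; 0.00386 to 0.648), and Cebpb, Cfb, Cd93, Lyz2 and Fcer1g did not pass at 24 h either. Under median centring the median over all genes at 24 h was itself 0.155. The 7 hepatocyte markers, like C3, were not well above background on enough arrays. The 2 erythrocyte markers, both haemoglobin genes, had array medians of -1.63, 0.42, -2.21 and -0.21 at 8 h and 0.21, 0.09, 1.84 and 0.06 at 24 h, and did not pass. Replicate 1 at 8 h and replicate 3 at 24 h, the arrays with the lowest and highest C1qb ratios, were among those with the most unequal haemoglobin signal, while replicate 3 at 8 h, with the lowest haemoglobin ratio, had a C1qb ratio of -0.35. The part of blood content in the C1qb values was not tested.

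Genes whose 8 log2 ratios lay closest to the mean of the C1q chains were found by the root-mean-square difference over the arrays, among 7067 genes with a symbol. The C1q mean ran -0.57, -0.19, -0.22 and -0.18 over the 8 h replicates, then 0.36, 0.43, 0.77 and 0.42 over those of 24 h. The 5 nearest were Fuca1 (0.107), a lysosomal fucosidase, Ifi30 (0.114), a lysosomal thiol reductase of antigen-presenting cells, Chpf (0.126), a chondroitin synthesis enzyme, Fxyd2 (0.129), a sodium pump subunit, and Igfbp4 (0.131), an IGF-binding protein. C1qc itself differed from the C1q mean by 0.112 and C1qa and C1qb by 0.242 each. The chains are part of that mean, so their distances are not like for like with those of other genes. Among the macrophage markers Fcer1g ranked 7, Cd163 9 and Tyrobp 17, while Cd68 ranked 2459, Lyz2 3582 and Cd74, the invariant chain of MHC class II, 6295. The arrays share their dye layout and normalization, so these distances are descriptions with no test.

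**Figure D5:**
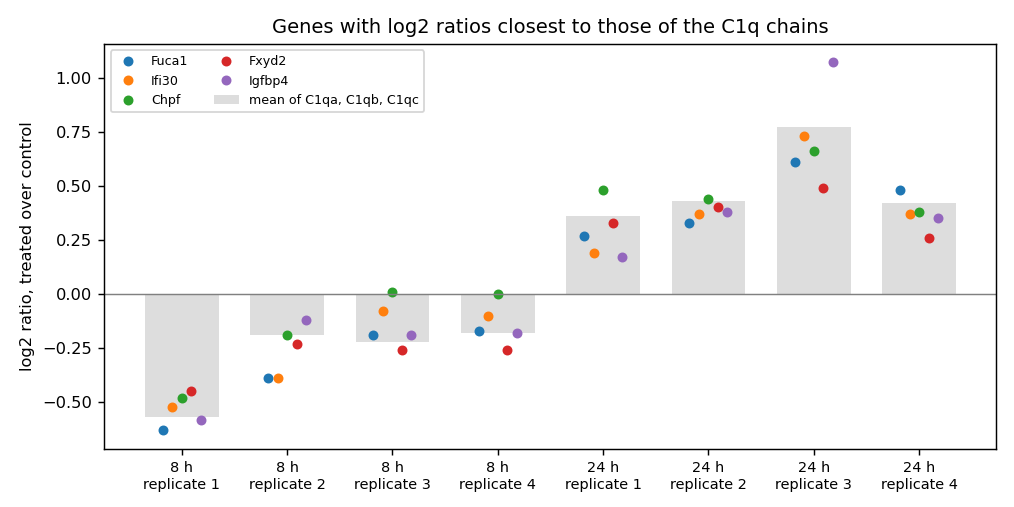
Log2 ratio of treated over control RNA (y axis) on each of the 8 arrays (x axis) for the mean of C1qa, C1qb and C1qc (grey bars) and for the 5 genes nearest to it (points). The bars run from -0.57 on replicate 1 at 8 h to 0.77 on replicate 3 at 24 h, and all 5 genes lie above 0 at 24 h.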

How the data were processed

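Each array held RNA of treated and control castrated rats in 2 dyes. Agilent Feature Extraction 9.5.3.1 is named in the submitters' processing notes. The deposited scanner files give mean and background intensity per spot and channel, and per the file headers also processed signals and flags. The authors' deposited table holds log2 values that matched log2 ratios made here from the processed signals within 1.35e-05.

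Mean intensities were corrected with normexp (offset 50), loess-normalized and averaged over a probe's spots without outlier flags, in R 4.3.3 with limma 3.58.1. Channel levels were also Aquantile-normalized. Of several kept probes of a gene the brightest was used. limma (two-sided, adjusted p under 0.05) used time and dye coefficients, checked on simulated data. The members and lists were chosen with earlier results of these data known. Besides the 8 components, the text names list genes that passed (up to 6 per list), C3ar1, C5ar1, Itgam, Itgb2, Cd55, Cd59 and Clu, and the 5 genes most like the C1q mean; the same search for C3 was not run, as C3 was not kept. 1 other gene is not reported here. Alternatives covered normalization, filters, dye, weights, replicate block, single times and leaving out each array.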

Additional observations from a re-analysis of the deposited data

Results flagged for a closer look

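In the groups of 4 samples, 102 sets of values were searched for 1 sample far from the other 3, and 6 were found, where chance alone flags about 1 in 20. The C1qc control level of replicate 3 at 8 h, 6.91, was below the other controls, and that of replicate 2 at 24 h, 6.85, above them. The C1r log2 ratio of replicate 1 at 8 h was 0.29, with the others near 0. The C1s treated level of replicate 1 at 24 h, 6.69, was below the others. Replicate 1 at 8 h also gave the lowest log2 ratios of Fxyd2, -0.45, and Igfbp4, -0.58.

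The response differed between 8 h and 24 h by the limma contrast for 8 named genes, each with the higher log2 ratio at 24 h. Apart from C1qa and C1qc, these genes were named because they had passed at 24 h or between times, so their count is no test. Of all genes tested, 0.725% were called higher between times and 0.569% lower. The differences were 0.77 for C1qa, 0.76 for C1qc, 1.51 for Cfb, 0.85 for Cd163, 0.70 for Fcer1g, 2.10 for Col1a1, 2.08 for Col3a1 and 0.60 for Fabp4. Of the 8 fits without 1 array, C1qc, Col1a1 and Col3a1 passed in 8, C1qa in 6, Fabp4 in 5, Cd163 in 3, Cfb in 2 and Fcer1g in 1, and none of these genes passed with median centring. C1qa, Cfb and Fcer1g also did not pass with the authors' processed signals. Fuca1 (0.77), Chpf (0.65) and Fxyd2 (0.67) differed as well, but they were picked for ratios close to the C1q mean on the same arrays, so their differences are descriptions and no test. An effect of the slide cannot be told apart from one of time in these differences.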

How the results depend on the processing

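Of 1056 alternative values of single genes, 875 kept direction and side of the threshold, 158 lost the call, 9 gained one and 14 turned sign; the causes were not tested. Genes called at 8 h, 3 in the report, were 1 with the authors' processed signals, 0 with their deposited table, 0 with median centring, 1 with no dye coefficient, 0 with the arrays of that time alone and 0 to 1224 without 1 array. The highest came without replicate 2 at 8 h. At 24 h the 767 genes became 402 with median centring (384 higher, 18 lower; 450 and 317 in the report), 1529 with array weights, 1599 with the arrays of that time alone and 191 to 1243 without 1 array, the extremes being without replicate 1 at 24 h and without replicate 1 at 8 h. Between times the 141 genes became 86 with processed signals, 87 with the table, 0 with median centring, 270 with weights and 28 to 589 without 1 array, the extremes being without replicate 1 at 24 h and without replicate 2 at 8 h. Under median centring the median over all genes was 0.122 (8 h) and 0.155 (24 h). Relative to these, C1qa (1.00) and C1qc (0.62) were still higher at 24 h, Serping1 (0.16) was about level and C1s (0.10) was lower. Complement genes called were 0 to 1 at 8 h without 1 array, 2 to 2 at 24 h, and between times 1 with processed signals, 1 with the table, 0 with median centring and 1 to 2 without 1 array. Signs turned for Serping1 between times (0.02 with processed signals, 0.02 with the table, -0.23 to 0.03 without 1 array, highest without replicate 4 at 8 h); with median centring for C1qa at 8 h (0.23), Serping1 at 8 h (0.31) and 24 h (0.16), C1s (0.10) and Itgam (0.20) at 24 h; for C1s at 24 h without 1 array (-0.16 to 0.04, highest without replicate 1 at 24 h) and between times with weights (-0.02); for C1r at 8 h (-0.04 to 0.09, lowest without replicate 1 at 8 h); and for Cd55 at 24 h with processed signals (-0.13), the table (-0.13) and no background correction (-0.02). The replicate block, fitted although same-numbered arrays of the 2 times correlated at -0.262, 0.172, -0.158 and -0.081 in their deviations (after the dye coefficient 0.282, 0.191, 0.309 and 0.338, where 0.2 comes without pairing), 1 of 4 arrays correlating best with its own number, gave 8 genes at 8 h, 834 at 24 h and 309 between times; C1qb between times was then 0.83 with adjusted p = 0.0371. Dim signal limits C3.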
